A study of Arabidopsis thaliana with 12 samples.

Results

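The RBOH genes of Arabidopsis thaliana, RBOHA to RBOHJ, encode the 10 NADPH oxidases of the plasma membrane. They were taken by their locus identifiers (AT5G07390, AT1G09090, AT5G51060, AT5G47910, AT1G19230, AT1G64060, AT4G25090, AT5G60010, AT4G11230 and AT3G45810, in order) from 2 tables of RNA sequencing counts. All 10 were among the 27612 entries of one table, and 8 were among the 21981 entries of the other, where RBOHH and RBOHJ were not analysed. The tables cover 12 libraries of whole seedlings grown for 10 days. In the flg22 experiment, wild type and the cerk1-/- mutant received sterile water (WT_mock, cerk1_mock) or 100 nM flg22 (WT_flg22, cerk1_flg22), with 1 library per combination. The library titled as cerk1 with flg22 has cerk2-/- as its genotype in another label and was placed by its title. In the second experiment, 4 untreated lines had 2 libraries each. All 4 carried a FLAG-tagged CERK1 transgene behind the CERK1 promoter in the cerk1 background, of wild-type sequence in CERK1_WT and of mutated forms named 3A, 3D and 3E in CERK1_3A, CERK1_3D and CERK1_3E. The substituted residues, the duration of the flg22 treatment and the number of independent transformants are not given in the sources used here, so construct and line cannot be told apart.

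An RBOH protein carries electrons from cytosolic NADPH across the plasma membrane to oxygen and so makes superoxide in the cell wall space, which is turned into hydrogen peroxide. Calcium binding to EF hands and phosphorylation of the N-terminal domain switch the enzyme on. When the receptor kinase FLS2 and its co-receptor BAK1 perceive flg22, a peptide of bacterial flagellin, the kinase BIK1 and calcium-dependent kinases phosphorylate RBOHD, and the oxidative burst follows within minutes. Chitin is perceived through CERK1, a LysM receptor kinase. The series title concerns phosphorylation of CERK1 that flg22 brings about, so the comparisons ask how the oxidase transcripts respond to flg22 in wild type and in the cerk1 mutant, and whether mutated CERK1 forms alter them at rest.

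A library held 18159354 to 22663236 counts in the treated series and 36013439 to 41288819 for the lines. Leaf markers summed to between 30692 and 36274 CPM (counts scaled by TMM to a common library size) in the 4 flg22 libraries, whereas 11 root hair markers summed to 211 CPM in WT_mock and 134 in WT_flg22, against 50.7 in cerk1_mock and 96.0 in cerk1_flg22. None of the 11 was at 0. CERK1 stood at 24.9 CPM in WT_mock and 9.70 in cerk1_mock, and at 273 and 119 CPM with flg22, so CERK1 reads were fewer in the libraries labelled cerk1 but not absent, and more numerous in cerk1_flg22 than in WT_mock. Whether these reads come from an intact transcript cannot be told from counts per gene. In bulk seedlings, fewer cells of a type and less RNA per cell cannot be told apart.

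RBOHD had the highest level per length of the family in each of the 4 libraries of the flg22 experiment and the largest flg22 response of the family in wild type. RBOHD is the oxidase of the flg22 burst. Wild type had 60.2 CPM in WT_mock and 648 in WT_flg22, and the mutant had 38.3 in cerk1_mock and 349 in cerk1_flg22. Both flg22 libraries lay far above both mock libraries, and within each treatment cerk1 was the lower. The flg22 ratio of RBOHD was 10.8 in wild type (95% counting interval 10.14 to 11.43) and 9.11 in the mutant (8.45 to 9.83). It stood at 0.636 times the wild-type level in cerk1_mock (0.580 to 0.697) and at 0.539 times in cerk1_flg22 (0.523 to 0.555). The intervals cover counting error only, and with 1 library per combination there is no replicate error and no test.

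RBOHD also took a larger share of the family's reads after flg22, a measure that needs no scaling between libraries. It held 49.1% of all RBOH counts in WT_mock (exact binomial interval 47.1 to 51.1) and 87.1% in WT_flg22 (86.5 to 87.6). In cerk1 the shares were 58.7% without flg22 (56.0 to 61.4) and 81.5% with it (80.6 to 82.3). Both mock shares were below both flg22 shares. Against RBOHF in the same library, RBOHD had 2.91 counts per RBOHF count in WT_mock (2.59 to 3.26) and 2.95 in cerk1_mock (2.56 to 3.41), with intervals that overlapped. The number was 19.5 in WT_flg22 (18.0 to 21.1) and 13.2 in cerk1_flg22 (12.04 to 14.4), where they did not.

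**Figure D1:**
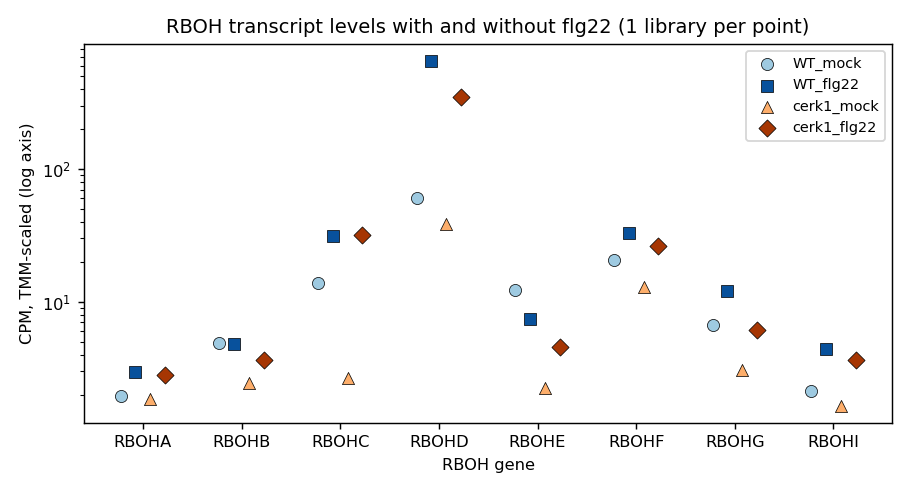
TMM-scaled CPM of the 8 measured RBOH genes on a log axis, with 1 point for each of the 4 libraries of the flg22 experiment. RBOHD lies between 38.3 and 648 CPM, and in cerk1_mock RBOHC and RBOHE lie below their other libraries.

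The promoters of RBOHD and RBOHC are shown because these 2 members had the largest flg22 ratios in cerk1, and RBOHD also in wild type, and they differ in their W-boxes, the elements that WRKY factors bind. Each sequence holds the 250 bases before the RefSeq start of the gene in TAIR10.1, read on the strand of the gene, and capitals mark the W-box core TTGAC on either strand. RBOHD lies on the plus strand at chr5:19396791-19397040 and RBOHC on the minus strand at chr5:20762462-20762711.
RBOHD: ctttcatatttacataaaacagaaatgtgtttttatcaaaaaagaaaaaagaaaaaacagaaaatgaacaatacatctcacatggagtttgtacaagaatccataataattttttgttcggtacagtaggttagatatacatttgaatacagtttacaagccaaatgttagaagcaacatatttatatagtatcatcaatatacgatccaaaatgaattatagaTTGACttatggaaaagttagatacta
RBOHC: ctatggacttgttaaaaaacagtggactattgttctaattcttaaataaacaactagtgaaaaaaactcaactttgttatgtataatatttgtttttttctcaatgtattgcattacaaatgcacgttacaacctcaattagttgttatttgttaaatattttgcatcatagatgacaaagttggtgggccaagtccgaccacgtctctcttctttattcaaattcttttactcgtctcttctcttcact

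RBOHD holds 1 core, which begins 26 bases before the start and reads TTGACT. RBOHC holds 0. Among the promoters of 27443 protein-coding nuclear genes cut in the same way, 44.9% hold at least 1 core and 14.1% at least 2, and 28.4% hold TTGACC or TTGACT. The forms TTGACC and TTGACT contain the core and are counted in it. Of the other members described here, RBOHH holds 2 cores, RBOHA, RBOHE and RBOHG hold 1 each, and RBOHF, RBOHI and RBOHJ hold 0. The G-box CACGTG, found in 6.49% of the windows, occurred in none of these 9. A match describes the letters of the window and is no evidence of binding.

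RBOHC, also known as RHD2, makes the superoxide that drives root hair tip growth. Wild type had 13.8 CPM in WT_mock and 31.4 in WT_flg22, and the mutant had 2.66 in cerk1_mock and 31.9 in cerk1_flg22. The 2 flg22 libraries were alike and cerk1_mock was far below the other 3. The flg22 ratio of RBOHC was 2.28 in wild type (1.97 to 2.64) and 11.98 in the mutant (9.04 to 16.2). It was 5.17-fold lower in cerk1_mock than in WT_mock (3.84 to 7.07), whereas with flg22 the ratio of cerk1 to wild type was 1.02 (0.910 to 1.14). The difference of the 2 responses, cerk1 minus wild type, was 2.04 on the log2 scale of CPM + 1. That difference and the mock comparison share the 2 mock libraries and are not independent.

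Root hair markers were also low in cerk1_mock, but in wild type they went the other way from RBOHC with flg22. Their median log2 ratio was -1.89 between cerk1_mock and WT_mock, where 8 of 11 fell short by 2-fold or more, against 4.01% of all genes. The flg22 ratios had medians of -0.49 (wild type) and 0.82 (cerk1). Medians over all genes in these comparisons were 0.00, -0.03 and -0.01.

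RBOHC was therefore also set against root markers of its own library, by 3 measures chosen after the values were seen. For each 100 counts of the 11 root hair markers, RBOHC had 6.51 counts in WT_mock (5.74 to 7.36), 5.25 in cerk1_mock (3.91 to 6.93), 23.4 in WT_flg22 (21.4 to 25.5) and 33.2 in cerk1_flg22 (30.3 to 36.4). One gene, the cellulose synthase-like CSLD3, held 34.1% of those marker counts in WT_mock and 72.2% in cerk1_mock. Against the other 10 markers, RBOHC had 9.88 counts in WT_mock (8.69 to 11.2), 18.9 in cerk1_mock (13.8 to 25.4), 49.6 in WT_flg22 (45.04 to 54.7) and 83.3 in cerk1_flg22 (74.9 to 92.7). Against the 11 endodermis and Casparian strip markers it had 8.80 (7.75 to 9.96), 3.09 (2.30 to 4.06), 26.4 (24.1 to 28.8) and 27.5 (25.1 to 30.02) in the same order. Of these 11, SCR held 673 of 3103 marker counts in WT_mock and 601 of 1716 in cerk1_mock, and no measure without SCR was formed.

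The flg22 difference of RBOHC had 1 direction on these 3 measures, and the mock difference did not. On the log2 scale the flg22 difference lay at 1.85, 2.33 and 1.59 in wild type and at 2.66, 2.14 and 3.15 in cerk1, for the 11 root hair markers, the 10 without CSLD3 and the endodermis markers. The difference of cerk1_mock from WT_mock, -2.01 on CPM + 1, was -0.31, 0.93 and -1.51. The difference of responses, 2.04 on CPM + 1, was 0.82, -0.19 and 1.57. The sign of the RBOHC mock difference thus differed between the 3 measures. The marker counts differed between the mock libraries too. The 11 root hair markers had 4191 counts in WT_mock and 1009 in cerk1_mock, and the 10 without CSLD3 had 2763 and 281. A cause of the mock difference was not tested.

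RBOHE is known for the timing of tapetum cell death in anthers. Wild type had 12.3 CPM in WT_mock and 7.41 in WT_flg22, and the mutant had 2.26 in cerk1_mock and 4.58 in cerk1_flg22. Wild type was above cerk1 in both treatments, and flg22 went with a lower level in wild type and a higher one in cerk1. The ratio with flg22 was 0.605 in wild type (0.490 to 0.745) and 2.03 in cerk1 (1.40 to 2.96), and cerk1_mock was 5.42-fold lower than WT_mock (3.93 to 7.62). Of 5 tapetum markers only 2, AMS and MS1, had an entry in the flg22 experiment. Of these 2, 0 passed the CPM limit, and they summed to between 0 and 0.201 CPM. Against the 11 root hair markers RBOHE had 5.80 counts per 100 marker counts in WT_mock (5.07 to 6.60) and 5.53 in WT_flg22 (4.66 to 6.53), against 4.46 in cerk1_mock (3.23 to 6.01) and 4.77 in cerk1_flg22 (3.82 to 5.89), with intervals that overlapped. Without CSLD3 in the list it had 8.79 in WT_mock (7.68 to 10.03) and 16.01 in cerk1_mock (11.4 to 22.0), and against the endodermis markers 7.83 (6.84 to 8.93) and 2.62 (1.91 to 3.52), with no overlap in either case. The mock difference of RBOHE, -2.02 on the log2 scale of CPM + 1, was -0.38, 0.86 and -1.58 on these 3 measures. The part that the root content of the samples had in the RBOHC and RBOHE differences was not tested beyond these ratios.

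**Figure D2:**
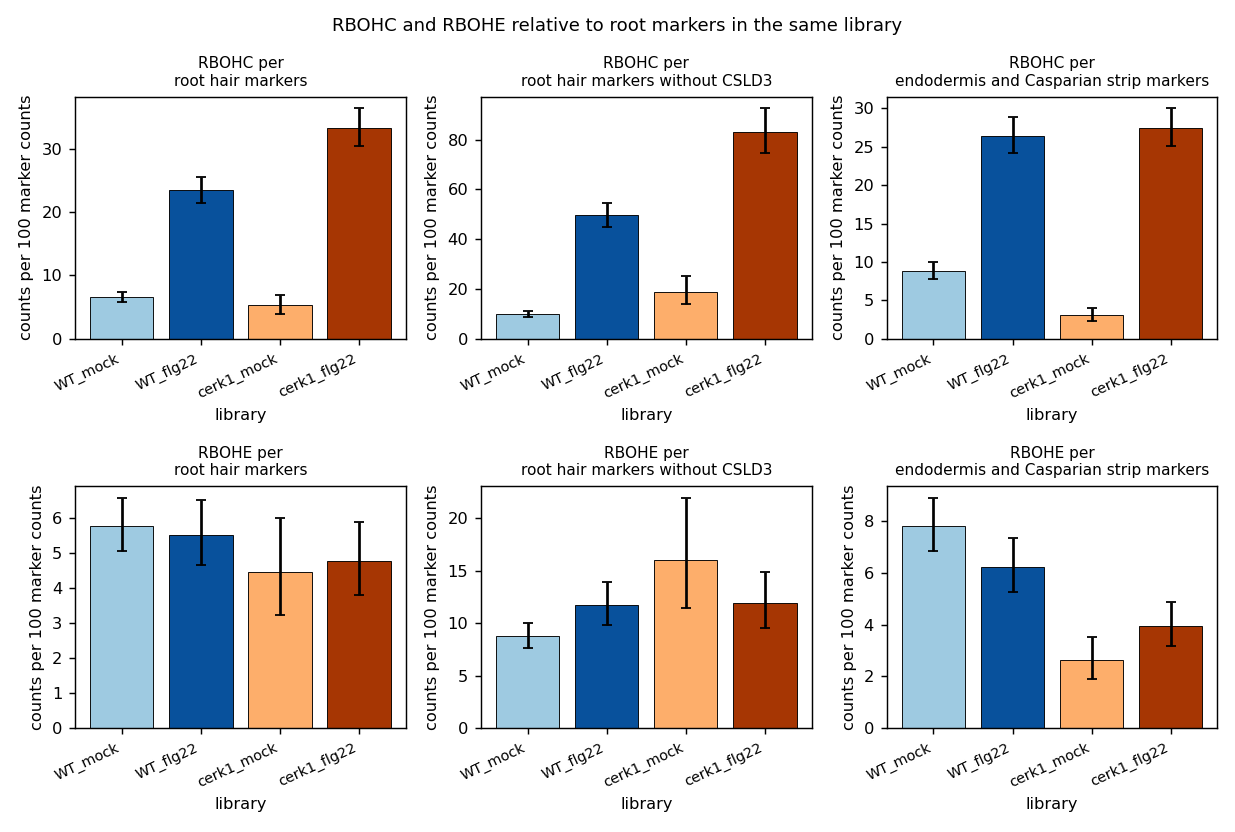
Counts of RBOHC (top) and RBOHE (bottom) per 100 counts of 11 root hair markers (left), of the 10 without CSLD3 (middle) and of 11 endodermis and Casparian strip markers (right) in the same library, with 95% counting intervals as error bars and 1 library per bar. RBOHC is higher with flg22 in each panel, whereas cerk1_mock lies above WT_mock without CSLD3 (18.9 against 9.88) and below it against the endodermis markers (3.09 against 8.80).

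RBOHF acts beside RBOHD in defence and in abscisic acid signalling of guard cells, and supplies peroxide for lignin of the Casparian strip. Wild type had 20.7 CPM in WT_mock and 33.3 in WT_flg22, and the mutant had 13.0 in cerk1_mock and 26.5 in cerk1_flg22. Both flg22 libraries were above both mock libraries. The ratio with flg22 was 1.60 in wild type (1.42 to 1.82) and 2.05 in cerk1 (1.76 to 2.38), and cerk1_mock stood at 0.626 times WT_mock (0.533 to 0.733). Guard cell markers summed to 35.8 CPM in WT_mock and 31.4 in WT_flg22, against 21.4 in cerk1_mock and 20.3 in cerk1_flg22. The 11 endodermis and Casparian strip markers summed to 156, 119, 86.2 and 116 CPM in the same order. Guard cell markers were lower in both cerk1 libraries and endodermis markers were lowest in cerk1_mock, and their part in the RBOHF values was not tested.

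The remaining 4 measured members were at or below about 12 CPM. RBOHG went from 6.76 CPM in WT_mock to 12.02 in WT_flg22 and from 3.07 in cerk1_mock to 6.14 in cerk1_flg22, with ratios of 1.78 (1.43 to 2.21) and 2.003 (1.46 to 2.77). As for RBOHD, each flg22 library was above the mock library of its genotype and cerk1 was below wild type, but cerk1_flg22 did not reach WT_mock. Between the mock libraries RBOHG was 2.20-fold lower in cerk1 (1.62 to 3.03) and RBOHB 2.01-fold (1.41 to 2.89). RBOHI was at 2.12, 4.46, 1.66 and 3.67 CPM, with ratios of 2.11 (1.44 to 3.12) and 2.22 (1.45 to 3.45). RBOHA was at 1.97, 2.95, 1.86 and 2.82 CPM, and its intervals for both flg22 ratios, 1.503 (0.986 to 2.31) and 1.52 (0.983 to 2.36), included 1. For RBOHA a change was not detectable at this depth. RBOHB, which acts in seed after-ripening, was at 4.94, 4.86, 2.46 and 3.67 CPM. Its ratio with flg22 was 0.983 in wild type (0.735 to 1.32) and 1.49 in cerk1 (1.02 to 2.19).

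**Figure D3:**
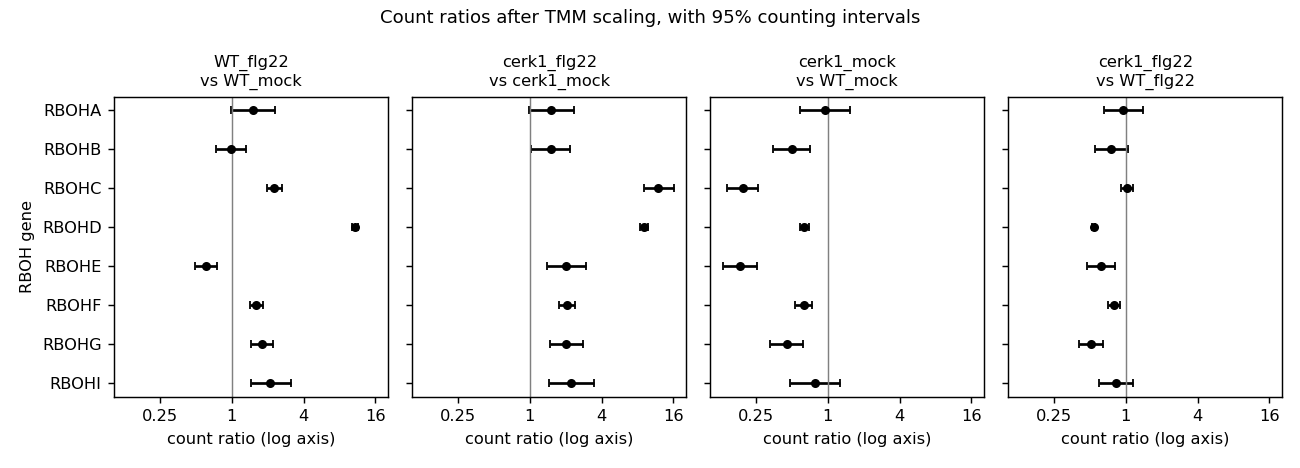
Ratios of TMM-scaled counts on a log axis for 8 RBOH genes in 4 comparisons, with 95% counting intervals as bars and the grey line at 1. RBOHD lies at 10.8 and 9.11 in the 2 flg22 comparisons, and RBOHC and RBOHE lie lowest between the mock libraries.

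Counted by ratios of CPM + 1, 1 of 8 members (RBOHD) was at least 4-fold higher with flg22 in wild type, against 6.28% of the 18872 genes with at least 1 CPM in at least 1 library. In cerk1 there were 2 of 8 (RBOHD and RBOHC), against 6.82%. No member was lower by 4-fold in either genotype, against 0.472% and 0.466% of genes. At 2-fold, RBOHC and RBOHD were higher in both genotypes, 2 of 8 against 13.2% in wild type and 15.2% in cerk1, and 0 were lower (5.79% and 5.38%). The added 1 CPM draws the ratios of members at few CPM toward 1. Count ratios without it were above 2 in cerk1 for RBOHE (2.03), RBOHF (2.05), RBOHG (2.003) and RBOHI (2.22) too, and in wild type for RBOHI (2.11). With 0.1 CPM added in place of 1, RBOHI also passed 2-fold in both genotypes and RBOHF in cerk1, which made 3 and 4 of 8. Under scaling by library totals only RBOHD passed in wild type. The shares of all genes above hold for CPM + 1 with TMM scaling, and none is given for these other settings. The members had a median log2 ratio of 0.70 (wild type) and 0.81 (cerk1), beside -0.03 and -0.01 over all genes. Higher by any amount were 6 of 8 in wild type (48.1% of all genes) and 8 of 8 in cerk1 (49.4%).

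Between the mock libraries 8 of 8 members were lower in cerk1, against 49.3% of all genes, with a median log2 ratio of -0.71. The counting intervals of RBOHA (0.946, 0.587 to 1.52) and RBOHI (0.783, 0.481 to 1.27) included 1. At least 4-fold lower were 2 of 8, RBOHC and RBOHE at log2 ratios of -2.01 and -2.02, just past the limit, against 0.54% of all genes, and 0 were at least 4-fold higher (0.0318%). They were also the 2 members past 2-fold on CPM + 1 (4.01% lower and 0.302% higher among all genes). RBOHG joined them with 0.1 CPM added, a setting for which no share of all genes is given. Count ratios without an added value were past 2-fold for RBOHB (2.01-fold lower) and RBOHG (2.20-fold lower) too. With flg22 7 of 8 were lower in cerk1 (50.6% of all genes), with RBOHC the exception. Of the 7, the counting intervals of RBOHA (0.650 to 1.40), RBOHB (0.551 to 1.04) and RBOHI (0.597 to 1.14) included 1. RBOHA, at -0.05, turned to 0.05 under scaling by library totals. That scaling moved the median of all genes to -0.28 for flg22 in wild type, -0.17 in cerk1 and 0.12 between the flg22 libraries. The median log2 ratio of the members there was -0.32, and 0 of 8 passed 4-fold in either direction (0.0901% higher and 0.0371% lower among all genes) or 2-fold (0.641% and 0.97%). The response differed at least 4-fold between the genotypes for 1 of 8 members, RBOHC, which was larger in cerk1, as were 0.593% of all genes, and for 0 it was smaller (0.0159%). At 2-fold these were 2 of 8, RBOHC and RBOHE (4.04%), and 0 (0.689%). All these counts rest on 1 library per group, and 8 genes of 1 family are not replicates.

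Levels per length gave the order of the members. In CPM per kilobase of the stated gene length, WT_mock had RBOHD at 18.8, RBOHF at 5.26, RBOHC at 4.34, RBOHE at 3.83, RBOHG at 2.43, RBOHB at 1.83, RBOHI at 0.675 and RBOHA at 0.621. RBOHD was first in each of the 4 libraries. RBOHC was below RBOHF in WT_mock, and in cerk1_mock, at 0.839, also below RBOHG and RBOHB. In WT_flg22 and cerk1_flg22 it came next after RBOHD, at 9.88 and 10.05, above RBOHF at 8.44 and 6.73. RBOHI and RBOHA were the lowest pair in each of the 4 libraries, with 42 and 39 counts in WT_mock and 89 and 59 in WT_flg22. The stated lengths differ from the longest annotated transcripts in both directions. RBOHD is stated at 3201 bases against 3603 annotated and RBOHA at 3167 against 3062, so close ranks are uncertain.

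Genes with patterns most like RBOHD over the 4 libraries, by the distance between mean-centred log2 values of CPM + 1, were AT5G03700 (0.13), CYP71B7 (0.18), AT2G43120 (0.21), AT4G18205 (0.21) and ACA1, a calcium-pumping ATPase (0.24). ACA1, for example, went from 59.1 to 527 CPM in wild type and from 35.3 to 280.4 CPM in cerk1. Those most like RBOHC were AGP2, an arabinogalactan protein (0.31), ATBFRUCT1, a cell wall invertase (0.33), AT3G22980 (0.34), AT5G64100 (0.41) and MDHAR, a monodehydroascorbate reductase (0.42). AGP2 went from 24.5 to 61.4 CPM in wild type and from 7.44 to 59.9 CPM in cerk1.

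The regulators around RBOHD responded in the same 4 libraries. Of 23 listed activators of the burst 21 were measured, and 10 of them were at least 4-fold higher with flg22 in wild type and 9 in cerk1, with 0 lower and median log2 ratios of 1.97 and 1.85. Among all genes 6.28% were that much higher in wild type and 6.82% in cerk1, and 0.472% and 0.466% were that much lower. BIK1, which phosphorylates RBOHD, had a ratio of 10.7 in wild type (9.75 to 11.7) and 9.72 in cerk1 (8.89 to 10.6). PCRK1, a related cytoplasmic kinase, went from 9.28 to 235 CPM in wild type and from 7.09 to 198 CPM in cerk1. CRK2, a receptor-like kinase that phosphorylates RBOHD, was 11.05-fold (9.97 to 12.3) and 15.2-fold higher (13.2 to 17.5), and the G protein subunit gene AGB1 was 8.19-fold (7.58 to 8.87) and 7.85-fold higher (7.30 to 8.44). Unlike RBOHD, BIK1 was level between the genotypes, at 26.3 CPM in WT_mock and 27.2 in cerk1_mock and at 281 and 264 with flg22.

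Of 9 negative regulators 4 were at least 4-fold higher with flg22 in both genotypes (6.28% of all genes in wild type and 6.82% in cerk1). By that much 0 were lower (0.472% and 0.466%). The 4 were PUB22, PUB23 and PUB24, related ubiquitin ligases that dampen immune signalling, and CPK28, a kinase that promotes turnover of BIK1. PUB22 went from 3.23 to 193 CPM in wild type and from 3.17 to 194 CPM in cerk1. PUB23 had ratios of 49.5 (42.6 to 58.0) and 61.7 (52.2 to 73.5), and PUB24 of 53.7 (37.7 to 79.4) and 92.6 (58.4 to 157). CPK28 was 14.3-fold (13.1 to 15.7) and 12.1-fold higher (10.9 to 13.4). The list medians were 0.98 and 0.57.

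Scavenging enzymes moved little as a list. Of 13 measured superoxide dismutase, catalase and ascorbate peroxidase genes 0 were at least 4-fold different in either genotype, with medians on the log2 scale of 0.03 (wild type) and -0.13 (cerk1). Among all genes 6.28% were higher and 0.472% lower by that much in wild type, and 6.82% and 0.466% in cerk1. The cytosolic dismutase gene CSD1 had ratios of 3.83 (3.32 to 4.43) and 3.24 (2.84 to 3.70), while the plastid dismutase gene CSD2 stood at 0.610 (0.502 to 0.739) and 0.410 times its mock level (0.342 to 0.489). APX1, the cytosolic ascorbate peroxidase, was at 1.63 (1.60 to 1.67) and 1.91 times (1.87 to 1.95), and the plastid peroxidase gene SAPX at 0.645 (0.605 to 0.688) and 0.772 times its mock level (0.722 to 0.824). Other plastid enzymes of the list moved less in wild type, with FSD2 at 0.16 and TAPX at 0.25 on the log2 scale of CPM + 1. In cerk1 both were lower with flg22, from 64.5 to 58.0 CPM (FSD2) and from 97.8 to 91.3 CPM (TAPX). FSD3 was lower with flg22 in both genotypes, from 82.4 to 58.9 CPM in wild type and from 114 to 62.0 CPM in cerk1.

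Peroxide-responsive genes and cell wall peroxidases were at least 4-fold higher for 4 of 6 genes in wild type and 5 of 6 in cerk1, against 6.28% and 6.82% of all genes. ZAT10, a zinc finger repressor, went from 1.31 to 101 CPM in wild type and from 1.81 to 119 in cerk1. OXI1, a kinase activated by peroxide, was 10.8-fold (7.80 to 15.2) and 30.9-fold higher (17.5 to 60.3), and ZAT12 9.68-fold (7.16 to 13.4) and 15.3-fold (10.98 to 22.0). PRX33, a cell wall peroxidase that also contributes to the oxidative burst, stood at 40.3, 214, 15.9 and 101 CPM in WT_mock, WT_flg22, cerk1_mock and cerk1_flg22, lower in cerk1 in both treatments like RBOHD. PRX33 lies in tandem with the close copy PRX34, and the assignment of reads between them could not be checked. The lists were assembled from known roles, and list counts are given without a test.

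**Figure D4:**
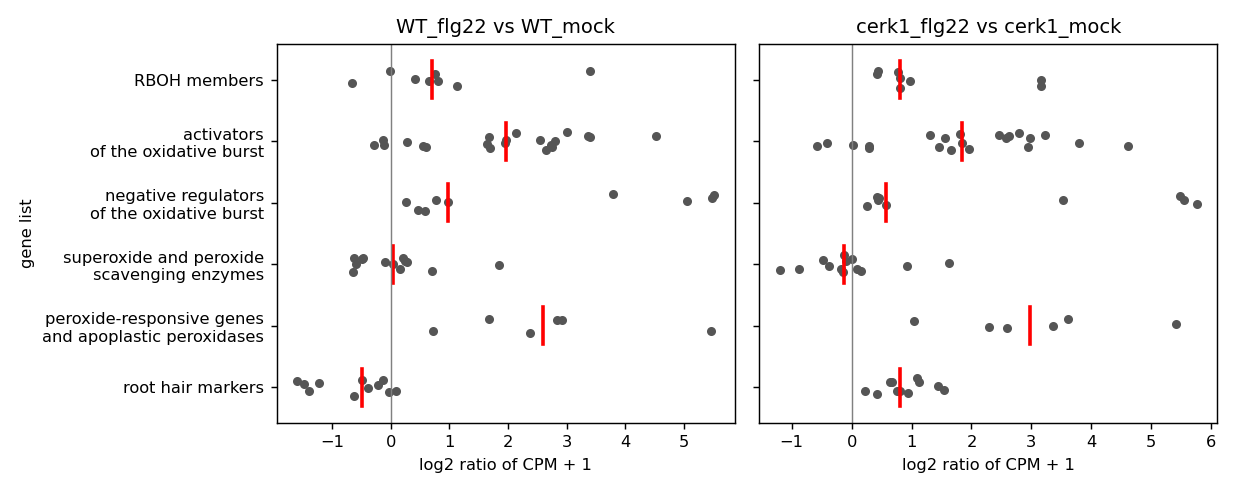
Log2 ratios of CPM + 1 with flg22 in wild type (left) and cerk1 (right), with 1 point per gene and a red line at the median of each list. Medians of the RBOH members are 0.70 and 0.81, those of the activators 1.97 and 1.85, and those of the root hair markers -0.49 and 0.82.

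In the untreated lines, RBOHD varied little, while CERK1 itself ranged from 52.5 and 61.1 CPM in CERK1_WT through 73.3 and 80.1 in CERK1_3A to between 114 and 129 in CERK1_3D and CERK1_3E. RBOHD stood at 105 and 106 CPM in the CERK1_WT libraries, 107 and 98.1 in CERK1_3A, 106 and 115 in CERK1_3D and 104 and 120 in CERK1_3E. The highest library was 1.22 times the lowest, and the libraries of every pair of lines overlapped. Means were 106 ± 0.56, 103 ± 6.4, 110 ± 6.4 and 112 ± 11 CPM (SD, n = 2). Relative to CERK1_WT the log2 fold change was -0.04 in CERK1_3A (SE 0.10), 0.06 in CERK1_3D (SE 0.10) and 0.08 in CERK1_3E (SE 0.10), each with an adjusted p of 1.0 by edgeR.

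None of the 8 members tested was called in any comparison of lines. edgeR's quasi-likelihood test at an adjusted p of 0.05 called 0 of 8 in each of the 6 comparisons and 0 of 8 in a test of any difference among the 4 lines. Among all 21274 genes it called 0.0047% in CERK1_3A, 0.0282% in CERK1_3D and 0.0047% in CERK1_3E against CERK1_WT. The shares were 0.0235% for CERK1_3D and 0.0094% for CERK1_3E against CERK1_3A, 0.0141% for CERK1_3E against CERK1_3D and 0.0235% for any difference. DESeq2 also called 0 of 8 members in all 7 tests. Among the same 21274 genes it called 14 in CERK1_3A, 26 in CERK1_3D and 39 in CERK1_3E against CERK1_WT. It called 77 for CERK1_3D and 29 for CERK1_3E against CERK1_3A, 42 for CERK1_3E against CERK1_3D and 118 for any difference. At an unadjusted p under 0.05 edgeR had 1 member in CERK1_3D against CERK1_3A, where 5.78% of all genes passed, and 0 in the other 6 tests. Those had 3.07%, 2.87% and 3.37% of genes for CERK1_3A, CERK1_3D and CERK1_3E against CERK1_WT, 2.45% and 4.03% for CERK1_3E against CERK1_3A and CERK1_3D, and 3.24% for any difference. With so few calls over the genome, a member that was not called has not been shown to be unchanged.

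The 1 member was RBOHI, at 1.85 and 1.84 CPM in CERK1_3D, 0.924 and 0.718 in CERK1_3A, 0.946 and 1.00 in CERK1_WT and 1.94 and 0.873 in CERK1_3E. Both CERK1_3D libraries were above those of CERK1_3A and CERK1_WT, and the CERK1_3E libraries were far apart. The log2 fold change of CERK1_3D was 1.17 relative to CERK1_3A (SE 0.43, edgeR adjusted p = 0.820, both libraries higher) and 0.92 relative to CERK1_WT (SE 0.42, edgeR adjusted p = 1.0, both libraries higher). RBOHI had the fewest counts of the 8, between 26 and 73 per library.

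The other members varied more between libraries than RBOHD, apart from RBOHF, which varied about as little. RBOHC ranged from 11.7 to 22.7 CPM with a median of 16.6, and both extremes belong to CERK1_3D. Root hair markers summed to 164 CPM in the CERK1_3D library with the highest RBOHC and to 101 in the other. Over the 8 libraries RBOHC held 11.7 to 16.2 counts per 100 root hair marker counts, or 25 to 37.2 without CSLD3. Per 100 endodermis marker counts it held 9.70 to 14.8. RBOHE lay between 10.7 and 17.1 CPM (median 14.0). It held 9.84 to 13.8 counts per 100 root hair marker counts, 17.9 to 32.5 without CSLD3, and 7.28 to 11.9 per 100 endodermis marker counts. RBOHG lay between 5.05 and 9.20 CPM (median 7.24), RBOHB between 2.34 and 5.98 (median 3.91) and RBOHA between 2.16 and 4.46 (median 2.93). RBOHF kept within 25.8 to 32.1 CPM (median 30.0). RBOHC, RBOHE and RBOHG were lower in both libraries of CERK1_3A and of CERK1_3E than in either CERK1_WT library. These comparisons share the CERK1_WT libraries. In them, 5 and 4 of 8 members had libraries that did not overlap, against 32.2% and 32.9% of all genes. In CERK1_3D against CERK1_WT, CERK1_3D against CERK1_3A and CERK1_3E against CERK1_3D it was 1 of 8 each (25.3%, 32% and 30.1%), and in CERK1_3E against CERK1_3A 0 of 8 (32.3%). The root hair markers summed to 124 and 142 CPM in CERK1_WT against 101 to 108 in CERK1_3A and 98.4 to 122 in CERK1_3E.

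**Figure D5:**
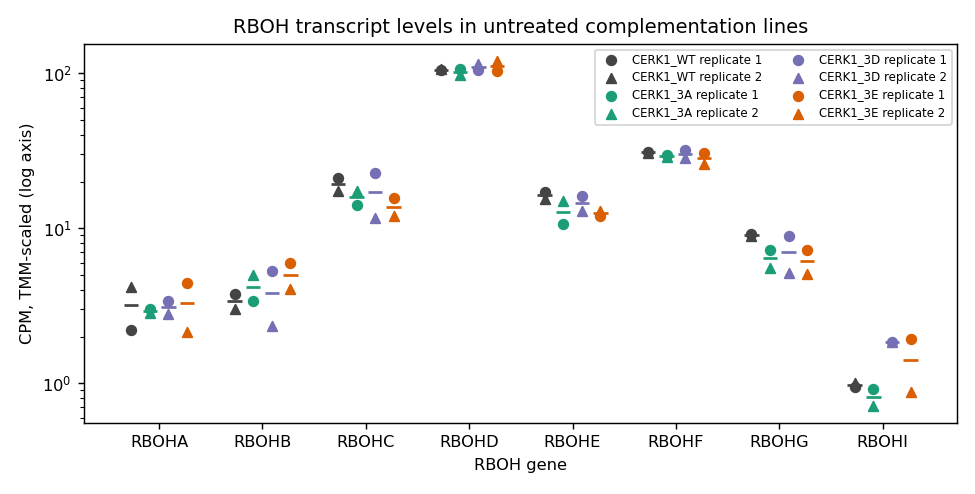
TMM-scaled CPM of the 8 detected RBOH genes in the untreated lines on a log axis, with a point for each library (circle, replicate 1, and triangle, replicate 2) and a bar at the mean of 2. RBOHD stays between 98.1 and 120 CPM, and RBOHC spans 11.7 to 22.7 CPM within CERK1_3D.

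RBOHH and RBOHJ, the oxidases of pollen tube growth, had 0 counts in all 8 libraries of the lines. A count of 0 allows up to 3 counts, which is 0.0709 to 0.0828 CPM depending on the library. Of 9 pollen markers 4 were also at 0 in all 8 libraries, namely VGD1, VGDH1, ANX2 and BUPS2, and the 9 summed to 7.86 to 10.8 CPM. Most of that sum was 1 gene, ANX1, at 6.44 to 9.64 CPM. Tapetum markers summed to at most 0.349 CPM, with MS1, DYT1 and A9 at 0, while RBOHE was at 10.7 CPM or more. The regulator lists held 0 called genes in the 6 comparisons of lines. PRX33 came nearest in CERK1_3E against CERK1_WT (log2 fold change 1.57, SE 0.20, adjusted p = 0.177 by edgeR, not called).

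Reads can be split between genes only where sequences are shared. Over the 45 pairs of members, coding identity was 61.7% to 81.4% at the base level and the longest identical run in the transcripts was 14 to 40 bases, the longest being between RBOHH and RBOHJ. The next was 26 bases between RBOHC and RBOHG, which share 77.0% of coding bases. Neighbouring genes can also share reads, and the strand setting of the counting is unknown. RBOHA, RBOHB, RBOHE and RBOHG overlap an opposite-strand neighbour, by 169, 59, 133 and 37 bases. For RBOHG that neighbour is CHLM, a chlorophyll synthesis gene with up to 7530 counts in the flg22 experiment, and the superoxide dismutase gene FSD1 lies 494 bases away with up to 28354 counts. RBOHG held at most 240 counts there. The overlapping neighbour of RBOHB, RPT5B, had up to 433 counts there against at most 98 for RBOHB. That of RBOHE, AT1G19240, had up to 277 against at most 243 for RBOHE. The neighbour of RBOHA had up to 21 against at most 59. The values of RBOHB, RBOHE and RBOHG are therefore uncertain. The stated lengths of RBOHA, RBOHB, RBOHE and RBOHG in the lines table, 6807, 7980, 5885 and 5480, exceed the whole annotated genes of 4019, 3848, 5434 and 5139 bases, so what was counted there is not clear and no level was compared between the tables.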

How the data were processed

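The authors deposited 2 tables of raw integer counts per gene, with no normalization, and a stated gene length. The genome build named is TAIR10, per the submitters' processing notes, and the aligner, counter and strand setting are not given in the sources used here. Groups came from sample titles. Within each table, edgeR 4.0.16 (R 4.3.3) gave TMM-scaled CPM. In the flg22 experiment, a gene was kept where any library reached 1 CPM, ratios for counting genes were formed on CPM + 1 with a 4-fold limit, and single ratios are count ratios with a 95% exact binomial interval. Intervals and floors (3 counts) reflect counting alone, because reads lacking molecular identifiers need not be separate molecules. No p value was computed there.

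For the 8 libraries of lines, the quasi-likelihood test of edgeR was run jointly on all genes passing filterByExpr, 21274 in number, two-sided, with Benjamini-Hochberg adjustment over all genes and an estimated common BCV of 0.170. DESeq2 1.42.0 was an alternative, and the fit was tested on simulated data. Whether both libraries of a line were grown separately is not given in the sources used here, so the p values reflect a spread that may be purely technical.

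The members, lists and limits were chosen with earlier results of these data known. All members were named, as were the 4 genes of each regulator list with the largest absolute log2 ratio in wild type. The 5 nearest patterns were taken for RBOHD and RBOHC. Outside that rule, FSD2, FSD3 and TAPX were named as other plastid enzymes of the scavenging list. FLS2, BAK1 and other genes of the regulator lists entered only counts. Promoter windows, gene positions and transcript alignments came from the RefSeq genome and annotation of TAIR10.1, which keeps the nuclear chromosomes of TAIR10, with Biopython 1.88. The promoter window of RBOHB is not reported here. Levels per length used the stated lengths of the flg22 table. Alternatives were other pseudocounts, scalings, filters, fold limits and tests, a replicate block, fewer libraries and no organelle genes.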

Additional observations from a re-analysis of the deposited data

Results flagged for a closer look

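Several effects of flg22 had opposite signs in wild type and cerk1, with 1 library per combination, so the difference was not tested. RBOHE had a log2 ratio of CPM + 1 of -0.66 in wild type and 0.77 in cerk1. RBOHB had -0.02 and 0.43, and its interval in wild type included no change. Root hair markers had a median of -0.49 (wild type) and 0.82 (cerk1), and that of the endodermis and Casparian strip markers -0.66 and 0.44. The median of the scavenging enzymes was 0.03 and -0.13, both close to 0.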

How the results depend on the processing

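Counts of members past 4-fold depended on the limit and on the value added to CPM. With 5 CPM added, the mock comparison had 0 members past it instead of 2, and the difference of responses 0 instead of 1. With a 2-fold limit, 2 members in place of 1 passed for flg22 in wild type (RBOHC beside RBOHD) and 2 in place of 1 for the difference of responses (RBOHE beside RBOHC). The other 4-fold counts stayed within 1.5 times under 0.1 CPM added, library totals, DESeq2 size factors and no filter. Counts at 2-fold, recomputed after seeing the data, went from 2 to 4 for flg22 in cerk1 with 0.1 CPM added, from 2 to 1 for flg22 in wild type with 5 CPM added or library totals, and from 2 to 1 for the difference of responses with 5 CPM added. Shares of all genes past each limit are given above for CPM + 1 with TMM scaling only. Relative to the root hair markers without CSLD3, also chosen after seeing the data, the mock differences turned to 0.93 (RBOHC) and 0.86 (RBOHE) on the log2 scale and the RBOHC difference of responses to -0.19. Of 200 recomputed log2 ratios of members 6 changed sign, namely RBOHA between the flg22 libraries and differences of responses of RBOHA, RBOHG and RBOHI. In the lines 0 members were called under each alternative, which were DESeq2, library totals, 2 other filters, only the libraries compared, organelle genes left out and each library left out in turn. With the replicate block 0 members were called too. For these alternatives the number of all genes called is given above for DESeq2 only. The replicate numbers are not stated to mark pairs. The correlation across genes of replicate differences lay between -0.00134 and 0.228, which cannot settle whether they do. Leaving out 1 library at a time, the log2 fold change of RBOHD relative to CERK1_WT lay between -0.11 and 0.02 in CERK1_3A, crossing 0 without CERK1_3A replicate 2 (0.022), and between -0.02 and 0.18 in CERK1_3E, crossing 0 without CERK1_3E replicate 2 (-0.022). RBOHI in CERK1_3D relative to CERK1_3A stayed between 1.00 and 1.36, with adjusted p values by edgeR of 0.570 to 1.0. Depth limits RBOHA and RBOHI most, with 33 to 89 counts in the flg22 experiment.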
